A study of Mus musculus with 6 samples.

Results

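The cell divides its chromosomes with a set of protein machines that are made mainly late in the cell cycle. The 49 genes described here, the members of the set, encode such machines. They comprise 5 genes of the spindle assembly checkpoint, 4 of the chromosomal passenger complex, 15 of the kinetochore, 8 for mitotic kinases and the anaphase-promoting complex with its targets, 5 of the spindle, 5 of cytokinesis, and 7 for condensin and chromosome structure. They were picked by name, and each was read from the probe sets that the array annotation assigns to that gene alone. Of several probe sets, that with the highest mean over all 6 samples was used. All 49 were measured, among 18161 genes in all, and no filter on low values was applied to them.

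RNA came from the tracheal mesenchyme of adult male C57Bl/6 mice. The 3 injured samples were taken 48 h post injury (48 hpi), after the mice had inhaled SO2 at 500 ppm for 4 h, and the 3 control samples came from uninjured mice. Inhaled SO2 kills luminal cells of the tracheal epithelium, which then regrows from its basal cells above this mesenchyme. Each sample was a pool of 4 mice, hybridized to its own Affymetrix mouse genome array, so the p-values below measure the spread between pools. Tracheal pieces of both groups were held in dispase for 23 min, the epithelium was peeled off, and all that remained was used as mesenchyme without sorting. The comparison asks how expression in the mesenchyme at 48 hpi differed from that in uninjured tissue.

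In G2 phase a conserved program switches on the genes needed for mitosis. Kinetochores assemble on centromeres and attach to spindle microtubules, and the checkpoint holds the cell until every chromosome is attached. The anaphase-promoting complex (APC/C), a ubiquitin ligase, then marks securin and cyclin B for destruction and separase frees the sister chromatids. Condensin compacts the chromosomes, and a central spindle and contractile ring split the cell. In the uninjured trachea few cells divide, so transcripts of such genes are known as markers of proliferation.

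Values are log2 RMA expression (robust multi-array analysis, in which the authors corrected background, equalized the arrays and summarized the probes of each probe set). A difference of 1 on this scale is 2-fold. Group differences are log2 fold changes, 48 hpi minus control, with the standard error (SE) of a limma fit, and a gene was called where its p, adjusted by the Benjamini-Hochberg method over 45037 probe sets, was below 0.05. A probe set is termed dim where its group mean lay below 4.76, the 40th percentile of the mean of all probe sets.

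Of the 49 genes, 44 were higher at 48 hpi (89.8%) and 0 were lower in the limma fit. At an unadjusted p below 0.05 these counts were 47 and 1, against 2650 and 1688 of all 18161 genes. At the adjusted threshold, 4.98% of all 18161 genes were higher and 1.24% were lower. The median log2 fold change of the members was 2.01, against -0.01 over all genes, and single members ranged from -0.41 to 4.27. A rise of more than 2-fold was called for 43 members (87.8%), against 2.11% of all genes. The 3 values at 48 hpi all lay above the 3 control values in 47 members (95.9%) and all below in 1, against 17.3% and 13.1% of all genes. The 5 members that did not pass were Bub3, Pttg1, Espl1, Aspm and Smc4. In these bulk samples, more dividing cells and more of each transcript per dividing cell cannot be told apart.

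**Figure D1:**
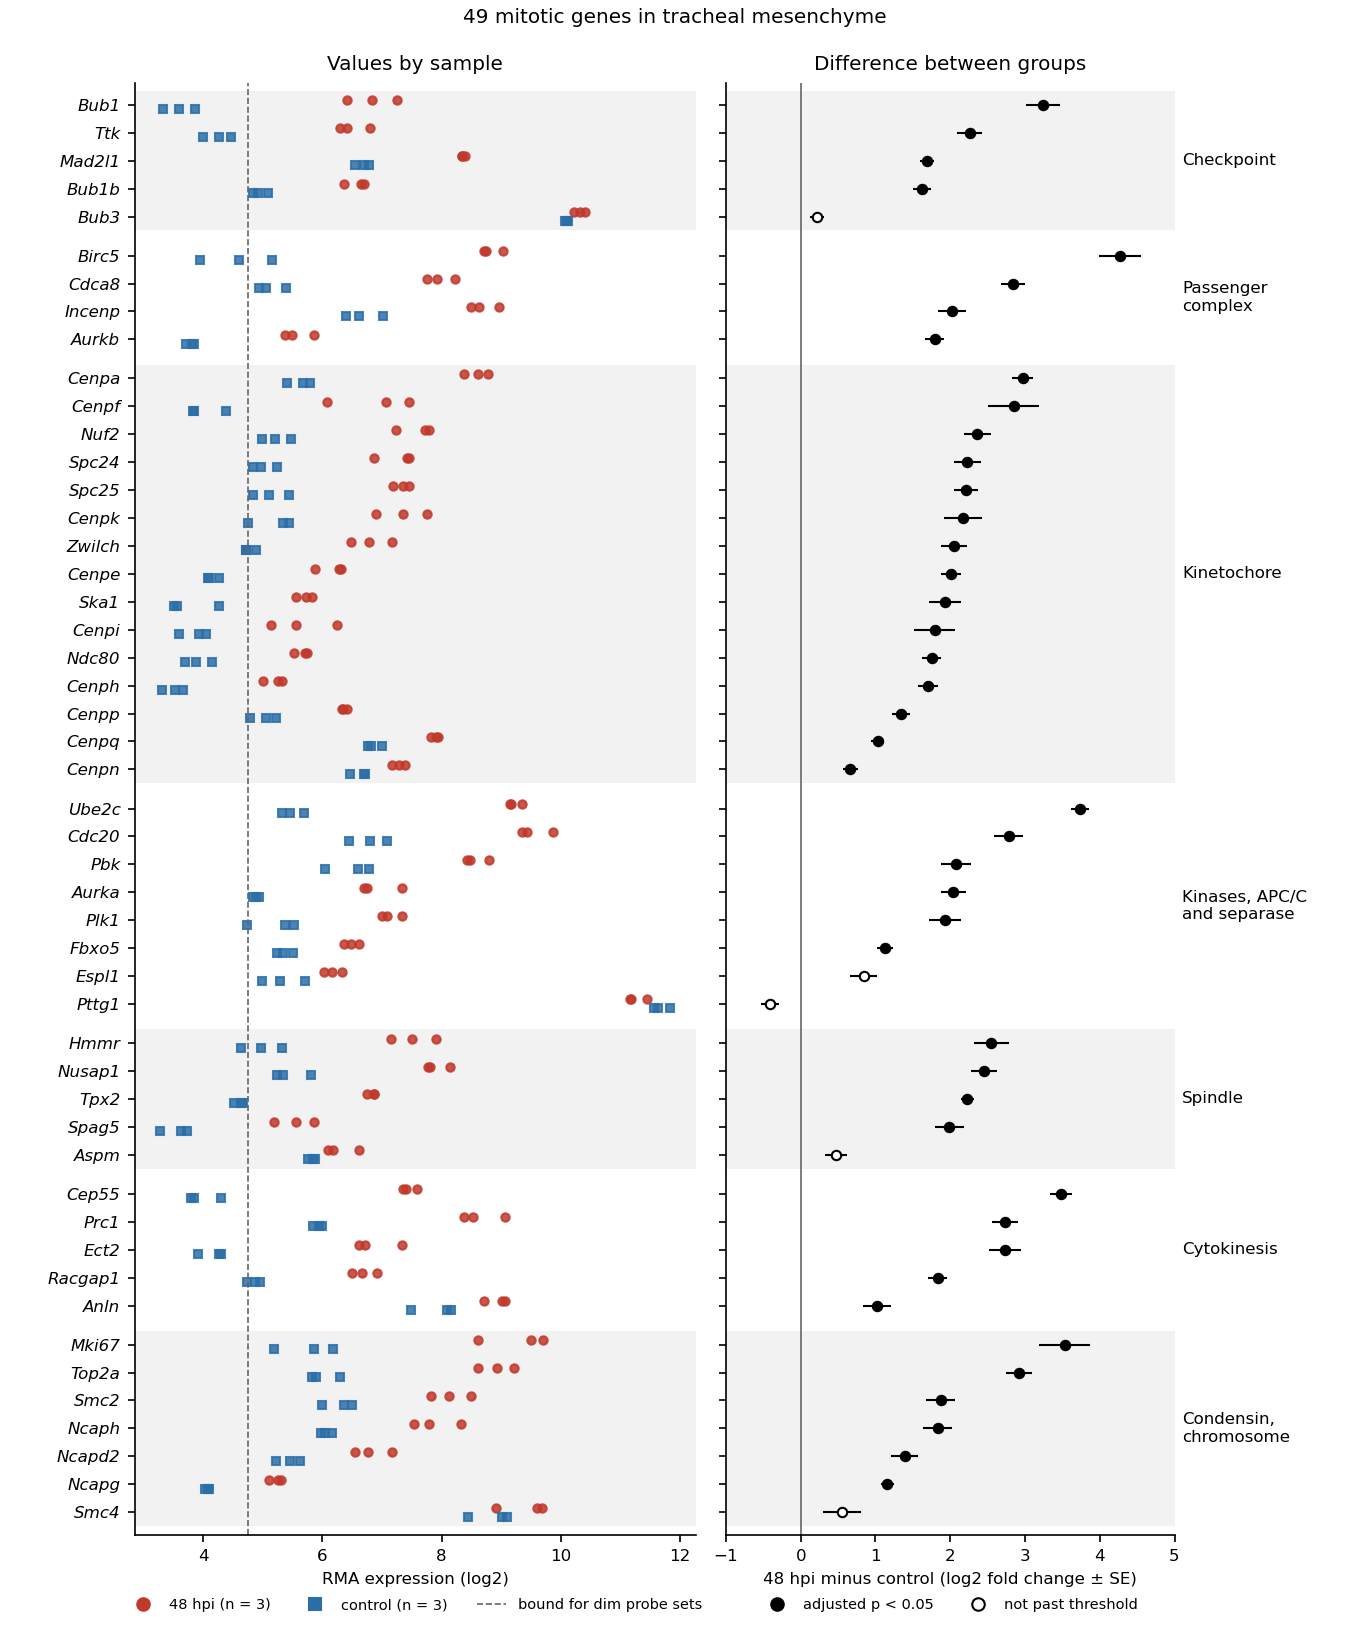
Left, log2 RMA expression of each of the 49 genes in the 3 samples at 48 hpi (red circles) and the 3 control samples (blue squares), by role; the dashed line is the bound for dim probe sets at 4.76. Right, the log2 fold change (48 hpi minus control) with its SE, filled where the adjusted p was below 0.05; 44 points are filled and all but Pttg1 lie right of 0.

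The label of the tissue was checked against 13 mesenchyme markers, fixed by name. All 13 were above the dim bound in at least 1 group, and 0 were called by limma (0 higher and 2 lower at an unadjusted p below 0.05, and 1 each with the replicate block described later). Their summed level on the linear scale ran from 74660 to 89470 at 48 hpi and from 74010 to 89510 in controls. Markers of other cells were present as well. Of 12 macrophage and monocyte markers 9 were higher at 48 hpi, and the median over the 12 was 1.25. Their summed level overlapped (10600 to 15420 at 48 hpi, 10990 to 12630 in controls), but it is weighted to Lyz2. Lyz2 was not called (log2 mean 12.8 at 48 hpi, 13.23 in controls). Cx3cr1 and Marco were not called either, and Marco was dim in both groups. Of 11 neutrophil markers 3 were higher, with Cxcr2, Mmp8 and Elane dim in both groups. Leaving out injured sample 1, injured sample 3 or control sample 3 reduced that count to 1. The summed level of the 11 (9384 to 14250 at 48 hpi, 11760 to 14940 in controls) is weighted to Ltf. Ltf was not called (log2 mean 12.91 at 48 hpi, 13.66 in controls), whereas S100a8 rose by 4.27 ± 0.77 and S100a9 by 4.13 ± 0.72. Of 9 endothelial markers 3 were higher (1662 to 2037 at 48 hpi, 1358 to 1631 in controls), but 1 without 48 hpi replicate 3 or control replicate 2 and 0 without 48 hpi replicate 1, 48 hpi replicate 2 or control replicate 3. Of 11 basal epithelial, 10 luminal epithelial, 9 lymphocyte and 5 erythroid markers 0 were called by limma. Dim in both groups were the lymphocyte markers Cd79a, Cd79b, Ms4a1 and Nkg7, the erythroid markers Hba-a1, Slc4a1 and Klf1, and the luminal marker Tekt1. At an unadjusted p below 0.05, 1 basal marker was higher and 2 luminal markers were lower, against 2650 and 1688 of all 18161 genes. With the block 2 luminal markers, Scgb1a1 and Scgb3a2, were called lower. Without 48 hpi replicate 1, 2 luminal markers were lower without the block too. The summed luminal level was 10990 to 28900 at 48 hpi and 22870 to 38460 in controls, and Scgb1a1, a secretory cell protein, had the largest fall of all 18161 genes (-2.57 ± 0.82, adjusted p = 0.146, and 0.0146 with the block). The part of any of these cell types in the rise of the mitotic genes was not tested.

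The promoters of the members hold sequence elements that are known from G2 and mitotic genes. The cell cycle genes homology region (CHR), with the letters TTTGAA, binds the LIN54 subunit of the MuvB complex, and the CCAAT box, with the letters CCAAT, binds the NF-Y factor. Both were searched on both strands in RefSeq windows (build GRCm38.p6) of 250 bases before to 50 after the annotated start, together with 3 E2F-type sites, TTTGGCGC, TTTCGCGC and GGCGGGAA. No motif contains another. Of the 49 genes, 41 had a window. Aurkb, Incenp, Spc24, Ska1, Zwilch, Pbk, Tpx2 and Smc4 had none.

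The 9 sequences shown are those with a CHR wholly within the last 50 bases before a listed start, and they let the spacing of the elements be read beside the values given later. Each is the 120 bases before the start, 5′ to 3′ in the direction of transcription. Capitals mark CHR elements (TTTGAA, or TTCAAA where on the opposite strand) and CCAAT boxes (CCAAT or ATTGG).
Ube2c (chr2:164769809-164769928, + strand): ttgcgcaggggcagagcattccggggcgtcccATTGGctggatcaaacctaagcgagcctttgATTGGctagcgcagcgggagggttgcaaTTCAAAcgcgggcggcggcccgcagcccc
Cdc20 (chr4:118437344-118437463, - strand): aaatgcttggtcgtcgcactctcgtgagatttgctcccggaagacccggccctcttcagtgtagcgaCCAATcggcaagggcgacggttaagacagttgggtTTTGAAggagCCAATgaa
Ncapg (chr5:45669805-45669924, + strand): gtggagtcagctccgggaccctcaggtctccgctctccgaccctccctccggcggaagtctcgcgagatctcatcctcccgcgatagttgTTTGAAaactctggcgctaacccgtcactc
Prc1 (chr7:80294356-80294475, + strand, second listed start): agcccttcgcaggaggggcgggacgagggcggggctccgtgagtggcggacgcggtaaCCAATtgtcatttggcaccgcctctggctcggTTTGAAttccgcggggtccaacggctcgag
Bub3 (chr7:131560250-131560369, + strand): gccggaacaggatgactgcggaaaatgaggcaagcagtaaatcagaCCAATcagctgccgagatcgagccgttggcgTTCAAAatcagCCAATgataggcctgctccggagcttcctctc
Cenpn (chr8:116921620-116921739, + strand): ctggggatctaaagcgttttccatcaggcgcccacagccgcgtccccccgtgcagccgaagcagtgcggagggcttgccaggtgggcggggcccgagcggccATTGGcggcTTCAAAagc
Top2a (chr11:99024190-99024309, - strand): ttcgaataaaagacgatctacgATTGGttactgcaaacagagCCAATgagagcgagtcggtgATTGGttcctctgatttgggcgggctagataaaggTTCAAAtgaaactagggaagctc
Espl1 (chr15:102296173-102296292, + strand): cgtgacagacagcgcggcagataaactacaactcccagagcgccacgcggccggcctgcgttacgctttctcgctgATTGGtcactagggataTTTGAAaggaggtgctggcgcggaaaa
Cep55 (chr19:38054921-38055040, + strand, second listed start): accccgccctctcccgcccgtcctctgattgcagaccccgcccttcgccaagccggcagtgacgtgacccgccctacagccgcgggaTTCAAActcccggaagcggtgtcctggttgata

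The CHR of Ube2c began 29 bases before the start. Within the 120 bases shown, 2 CCAAT boxes lay upstream of it, beginning 57 and 88 bases before the start. In Top2a 3 CCAAT boxes lay, within the bases shown, upstream of a CHR that began 23 bases before the start, and its whole window held 6 CCAAT boxes and 2 CHR elements. The whole window of Ube2c held 6 CCAAT boxes as well. The windows of Bub3 and Espl1 carry the same letters, although neither gene passed the test. A CHR was found in the windows of 28 of 41 members (68.3%), against 18.1% of 27025 genes with a window and 13.3% of the 14461 measured genes among them. It lay within 50 bases of the start in 26 members (63.4%), against 4.92% of all windows. A CCAAT box was found in 31 members (75.6%), against 37.9% of all windows, and 19 members (46.3%) held 2 or more, against 12.2%. Both elements together were found in 25 members (61.0%), against 7.12% of all windows. An E2F-type site was found in 3 members (7.32%), Cenph, Cenpn and Ncapd2, against 3.03% of all windows.

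**Figure D2:**
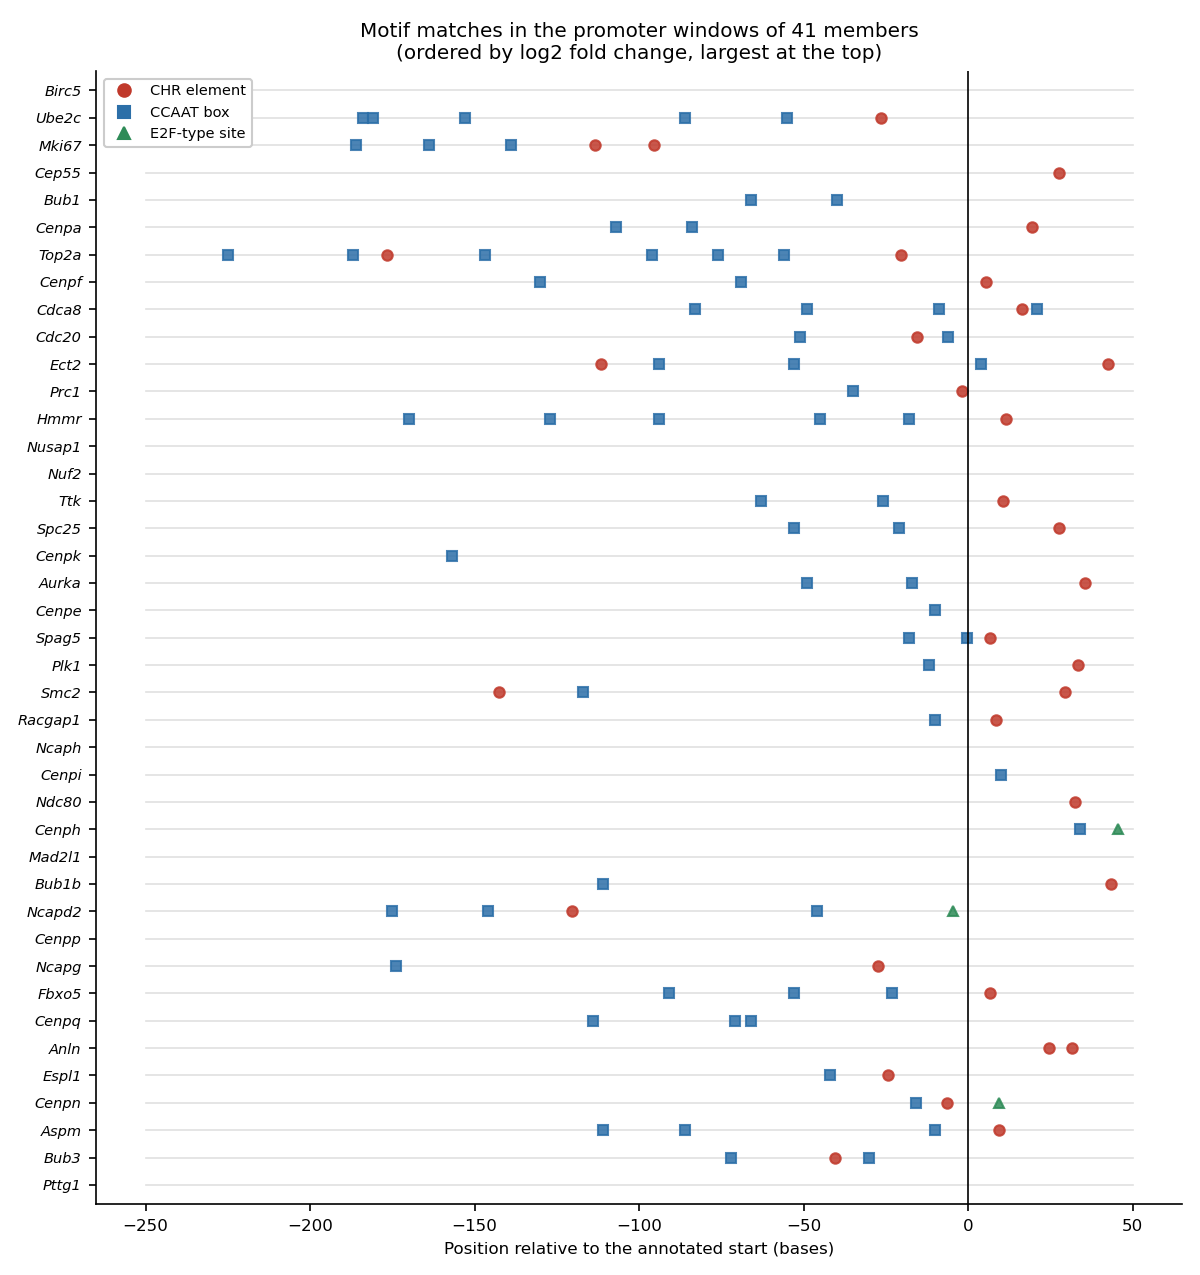
Positions of CHR elements (red circles), CCAAT boxes (blue squares) and E2F-type sites (green triangles) in the promoter windows of 41 members, in bases from the annotated start (black line), with genes ordered from the largest to the smallest log2 fold change. CHR elements lie close to the start in 26 members, on either side of it, and CCAAT boxes lie mostly upstream of them.

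Rises were found with and without a CHR match. The median log2 fold change was 2.02 for the 28 members with a CHR and 1.83 for the 13 without, and Birc5, with the largest rise, had no match to any motif in its window. Of the 5 members not called, 4 had a window, and 3 of these held a CHR. Among all measured genes with a window, 7.15% of those with a CHR were higher at 48 hpi, against 4.54% of those without. The members were not removed from these shares, and 25 of the 138 higher genes with a CHR were members. A match of letters is a description and does not show a site in use.

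**Figure D3:**
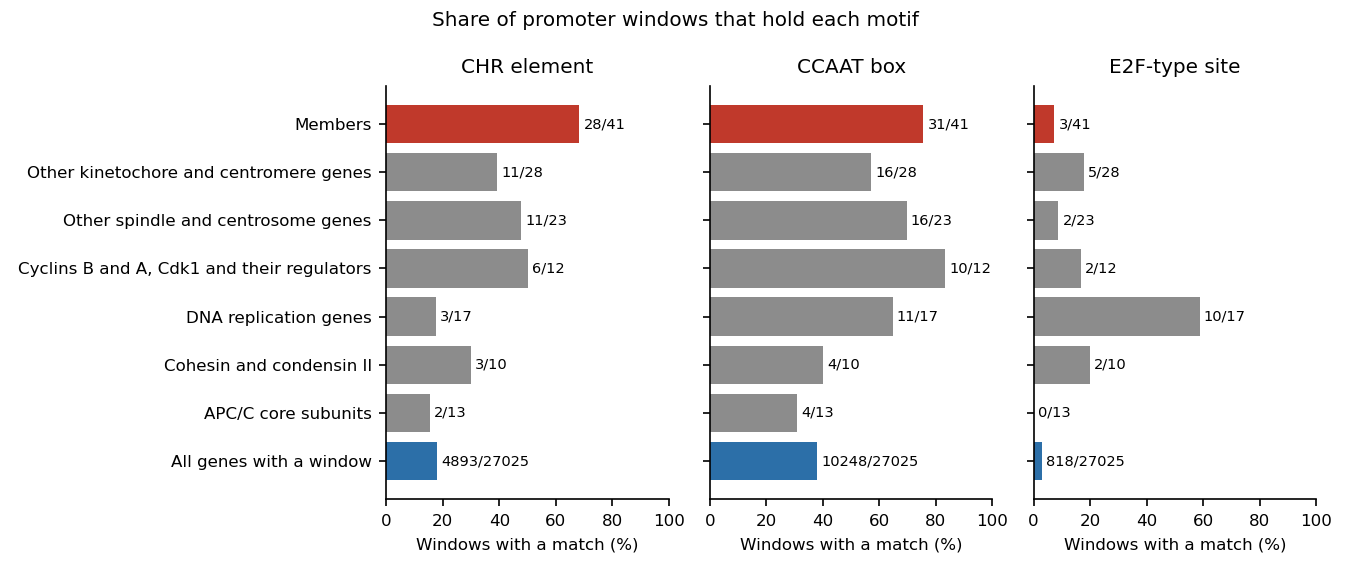
Share of promoter windows (percent) with a CHR element, a CCAAT box or an E2F-type site in the members (red), in 6 related gene lists (grey) and in all genes with a window (blue); the fractions give windows with a match over windows searched. The CHR share is 68.3% in the members, 47.8% in other spindle genes and 17.6% in DNA replication genes, and the E2F-type share is 7.32%, 8.70% and 58.8% in the same lists.

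The spindle assembly checkpoint delays anaphase while any kinetochore is unattached. Of its 5 genes 4 were higher, with log2 fold changes from 1.62 to 3.24. Bub1, a kinase that marks kinetochores for checkpoint assembly, had 6.42, 6.83 and 7.26 at 48 hpi and 3.59, 3.32 and 3.86 in controls, where it was dim. It rose 9.46-fold (log2 fold change 3.24 ± 0.23, adjusted p = 0.000788). Ttk, the kinase that starts checkpoint signaling, had 6.41, 6.29 and 6.80 at 48 hpi, against 4.47, 3.99 and 4.26 in controls, and was also dim there (2.26 ± 0.17, adjusted p = 0.00103). The lowest injured sample lay 2.55 above the highest control for Bub1 and 1.82 for Ttk. Mad2l1, which binds and restrains Cdc20, rose by 1.69 ± 0.09, and Bub1b, its partner in the inhibitory complex, by 1.62 ± 0.12. Bub3, the adaptor that carries Bub1 and Bub1b to the kinetochore, stood apart from them. It had 10.32, 10.22 and 10.41 at 48 hpi and 10.10, 10.13 and 10.07 in controls, a difference of 0.22 ± 0.09 (adjusted p = 0.228). The 3 values at 48 hpi all lay above the controls, by 0.09 at the nearest.

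The chromosomal passenger complex, in which Incenp, Birc5 (survivin) and Cdca8 (borealin) hold the kinase Aurkb at centromeres and then at the midzone, was higher in all 4 genes. Birc5 had the largest rise of the 49 genes and the 5th largest of all 18161. It had 8.72, 8.75 and 9.04 at 48 hpi, against 3.94, 4.60 and 5.15 in controls, a 19.3-fold rise (4.27 ± 0.28, adjusted p = 0.00064). Its control mean was dim and the 3 controls were spread over 1.21 log2 units, whereas the injured samples lay close together. Cdca8 had 7.93, 7.75 and 8.22 at 48 hpi and 5.39, 4.94 and 5.06 in controls (2.84 ± 0.16, adjusted p = 0.000455). Incenp rose by 2.02 ± 0.19 and Aurkb by 1.79 ± 0.13. The probe sets of Incenp and Aurkb are of a type that can share probes with other transcripts, and in both genes a further probe set was called, with log2 fold changes of 1.59 and 1.52. Incenp had 5 probe sets, of which only 2 were called. Of the rest, 1 lay above the dim bound and did not rise (0.03 ± 0.09, limma adjusted p = 0.901).

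All 15 kinetochore genes were higher at 48 hpi, 14 of them by more than 2-fold, with a median log2 fold change of 2.01. Cenpa, the histone H3 variant that marks centromeric chromatin, had 8.38, 8.61 and 8.78 at 48 hpi and 5.40, 5.79 and 5.67 in controls, a 7.84-fold rise (2.97 ± 0.14, adjusted p = 0.000185). Cenpf, a large protein of the outer kinetochore, had 6.08, 7.07 and 7.45 at 48 hpi, against 3.82, 3.84 and 4.38 in controls (2.85 ± 0.34, adjusted p = 0.00674). It had the largest SE of the 49 genes, because the injured samples differed among themselves by up to 1.37, but the groups were still 1.70 apart. Of the 3 probe sets of Cenpf, 2 were called. The other, above the dim bound, did not rise (0.01 ± 0.11, limma adjusted p = 0.968).

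Within the kinetochore, the 4 subunits of the NDC80 complex, which binds microtubules, rose by similar amounts. Nuf2 rose by 2.36 ± 0.18, Spc24 by 2.23 ± 0.18, Spc25 by 2.21 ± 0.16 and Ndc80 by 1.75 ± 0.13. Their intervals of 1 SE overlapped except for that of Ndc80. The subunits of the constitutive centromere network, which links Cenpa chromatin to the outer kinetochore, were less even. Cenpk rose by 2.17 ± 0.25, Cenpi by 1.79 ± 0.27, Cenph by 1.70 ± 0.13 and Cenpp by 1.34 ± 0.12, whereas Cenpq rose by 1.03 ± 0.09 and Cenpn by 0.66 ± 0.10. These differences depended in part on the probe set. Second probe sets above the dim bound rose by 1.49 ± 0.21 for Cenpn and 1.74 ± 0.16 for Cenpp, and did not rise for Cenpk (-0.11 ± 0.13). Zwilch, a subunit of the complex that brings dynein to kinetochores, rose by 2.05 ± 0.17, the kinesin Cenpe by 2.01 ± 0.14 and Ska1, which tracks microtubule ends, by 1.93 ± 0.21. In 6 of the 15 kinetochore genes the control mean was dim, and in these RMA compresses the fold.

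On the chosen probe sets, Cenpn and Cenpi were the least secure of these calls. Cenpn had 7.17, 7.29 and 7.38 at 48 hpi and 6.46, 6.69 and 6.71 in controls (adjusted p = 0.0194 in the limma fit), and with 1 sample left out its call held in 2 of 6 fits, and the adjusted p was 0.0604 when injured sample 2 was dropped, 0.0906 for injured sample 3, 0.056 for control sample 2 and 0.0556 for control sample 3. Cenpi had 5.55, 5.14 and 6.24 at 48 hpi, against 4.04, 3.92 and 3.59 in controls (limma adjusted p = 0.0161), and held in 4 of 6 such fits, with 0.0586 without control replicate 2 and 0.068 without control replicate 3. Both kept their direction in every such fit.

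Among the kinases and APC/C genes 6 of 8 were higher. Ube2c, the ubiquitin-conjugating enzyme that serves the APC/C, had 9.15, 9.17 and 9.35 at 48 hpi and 5.45, 5.32 and 5.69 in controls, a 13.3-fold rise (3.74 ± 0.12) with the smallest adjusted p of the 49 genes, 8.58e-05. Cdc20, the activator of the APC/C at anaphase, had 9.35, 9.44 and 9.88 at 48 hpi, against 6.80, 6.45 and 7.09 in controls (2.78 ± 0.20, adjusted p = 0.000812), and all 3 of its probe sets were higher, the chosen one being of the type that can share probes. The groups of both genes were more than 2 log2 units apart. Pbk, a mitotic kinase, rose by 2.08 ± 0.20, Aurka, which drives centrosome maturation, by 2.04 ± 0.17 and Plk1, which acts from mitotic entry to cytokinesis, by 1.93 ± 0.21. Fbxo5, an inhibitor of the APC/C, rose by 1.13 ± 0.11.

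The APC/C acts on securin (Pttg1), which holds separase (Espl1) inactive until anaphase. Neither gene passed the test. Pttg1 had 11.45, 11.17 and 11.19 at 48 hpi and 11.84, 11.56 and 11.63 in controls, so that all 3 injured samples lay below all 3 controls (-0.41 ± 0.12, adjusted p = 0.112). Espl1 had 6.02, 6.16 and 6.32 at 48 hpi, against 5.28, 4.99 and 5.70 in controls, all 3 above the controls (0.84 ± 0.18), and missed the threshold by a small margin (adjusted p = 0.05003). The other 2 probe sets of Pttg1 had log2 fold changes of -0.34 ± 0.11 and -0.30 ± 0.18, also in that direction and not called.

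Samples of the 2 groups that bear the same replicate number deviated together, and a limma fit with that number as a block was made for all genes. That pairing was chosen from these same values, so p-values with the block may be too small. With the block 46 members were higher and 1 was lower, against 8.79% and 4.65% of all genes. The member called lower was Pttg1 (adjusted p = 0.0275), and the members gained as higher were Espl1 (adjusted p = 0.0101) and Smc4 (adjusted p = 0.015). Pttg1 was lower in each same-numbered pair, by between 0.39 and 0.44. Only Bub3 and Aspm then remained without a call, with adjusted p of 0.183 and 0.0722 in the blocked fit.

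**Figure D4:**
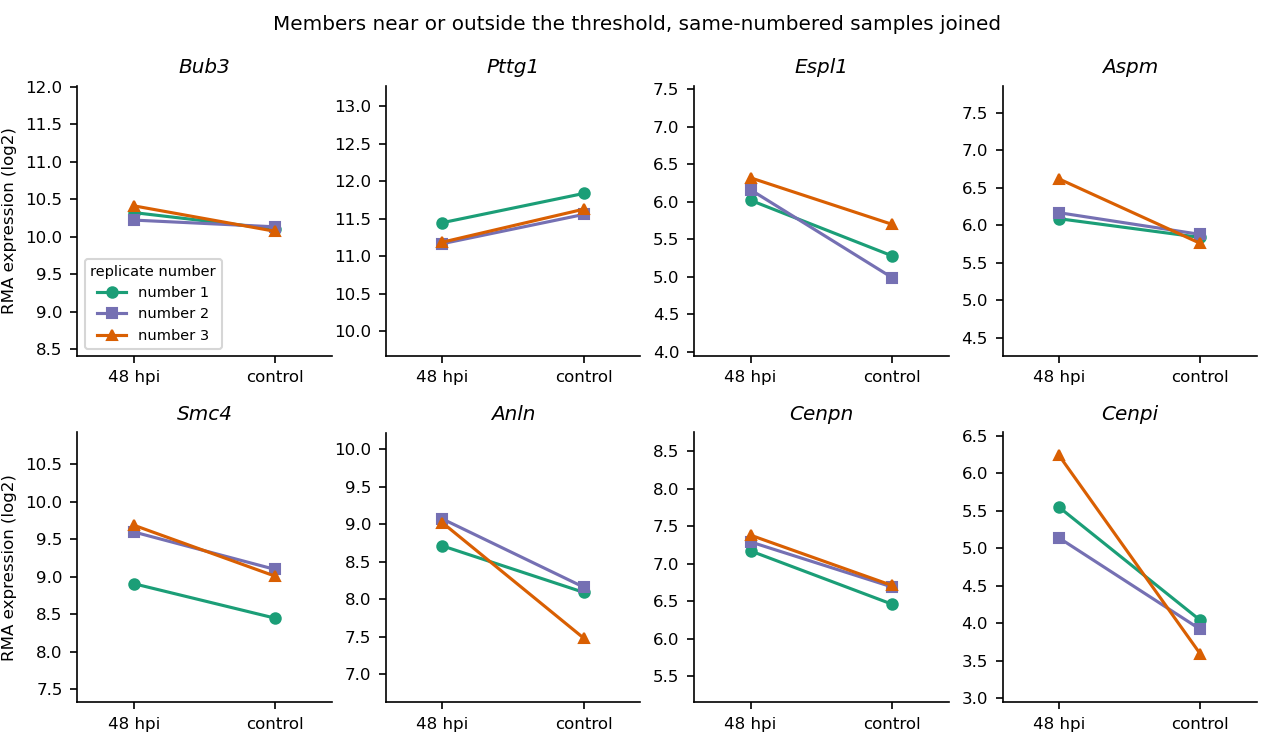
Log2 RMA expression of the 5 members that did not pass the test and of Anln, Cenpn and Cenpi, with 48 hpi at the left and control at the right of each panel and lines joining samples of the same replicate number; every panel spans the same range. Smc4 moves in parallel in its 3 pairs, whereas control replicate 3 of Anln lies below the other 2 controls.

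Of 5 spindle genes 4 were higher. Hmmr, which helps to organize spindle poles, had 7.15, 7.51 and 7.91 at 48 hpi and 4.96, 4.63 and 5.32 in controls (2.55 ± 0.23, adjusted p = 0.0022). Nusap1, which bundles microtubules near chromatin, had 7.80, 7.78 and 8.14 at 48 hpi, against 5.23, 5.33 and 5.80 in controls (2.45 ± 0.17, adjusted p = 0.000788). Tpx2, the activator of Aurka on the spindle, had 6.87, 6.87 and 6.75 at 48 hpi and 4.67, 4.51 and 4.63 in controls, where it was dim (2.23 ± 0.09, adjusted p = 0.000131). All 3 genes had their groups well apart, and Tpx2 had one of the 3 smallest SEs of the 49 genes. Only 2 of the 4 probe sets of Tpx2 were higher. The others, both above the dim bound, had log2 fold changes of -0.42 ± 0.15 and 0.01 ± 0.08. The first of these was called lower with the replicate block (blocked adjusted p = 0.0396). Spag5 (astrin), which secures attached kinetochores, rose by 1.99 ± 0.19, with a dim control mean.

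Aspm, a spindle pole protein, gave unlike results by probe set. The probe set with the highest mean had 6.09, 6.17 and 6.62 at 48 hpi and 5.84, 5.88 and 5.76 in controls (0.47 ± 0.15, adjusted p = 0.136). The probe set with the next highest mean averaged 7.25 at 48 hpi and 4.15 in controls and rose by 3.09 ± 0.19 (adjusted p = 0.000493). The other 3 were dim over the 6 samples and were not called. The missing call for Aspm therefore depended on which probe set was taken.

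All 5 cytokinesis genes were higher. Cep55, which recruits the abscission machinery to the midbody, had 7.36, 7.41 and 7.58 at 48 hpi and 3.79, 3.84 and 4.29 in controls, where it was dim, an 11.1-fold rise (3.48 ± 0.15, adjusted p = 0.000136). Prc1, which bundles the central spindle, had 8.38, 8.53 and 9.06 at 48 hpi, against 6.00, 5.84 and 5.94 in controls (2.73 ± 0.17, adjusted p = 0.00059). Ect2, the exchange factor that activates RhoA at the cell equator, rose by 2.73 ± 0.21 and its partner Racgap1 by 1.83 ± 0.13. Anln (anillin), a scaffold of the contractile ring, was the weakest call of the 49 genes. It had 8.71, 9.07 and 9.02 at 48 hpi and 8.09, 8.16 and 7.48 in controls (1.02 ± 0.19, adjusted p = 0.0346). The call was lost when any 1 sample was left out, with adjusted p from 0.0537 to 0.142. The second probe set of Anln, also above the dim bound, was not called (0.16 ± 0.22, limma adjusted p = 0.735).

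Of the 7 condensin and chromosome genes 6 were higher. Mki67, which coats mitotic chromosomes and is widely stained as the Ki67 antigen of cycling cells, had 8.61, 9.50 and 9.71 at 48 hpi and 5.19, 5.85 and 6.18 in controls, an 11.6-fold rise (3.53 ± 0.34, adjusted p = 0.0027). Top2a, the topoisomerase that untangles sister DNA, had 8.62, 8.93 and 9.22 at 48 hpi, against 5.89, 5.83 and 6.30 in controls (2.92 ± 0.18, adjusted p = 0.000569). In both genes the groups were more than 2 log2 units apart, although Mki67 was spread more widely, with SDs of 0.58 at 48 hpi and 0.51 in controls. Of the 3 probe sets of Top2a only 1 was called. Of the rest, 1 lay above the dim bound (0.29 ± 0.12, limma adjusted p = 0.255).

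Condensin I consists of the ATPases Smc2 and Smc4 and the subunits Ncapd2, Ncapg and Ncaph, and 4 of these 5 genes were higher. Smc2 rose by 1.87 ± 0.19, Ncaph by 1.83 ± 0.19 and Ncapd2 by 1.39 ± 0.18. The probe set of Ncaph can share probes with other transcripts, and the second probe set of this gene rose by 1.32 ± 0.18. Ncapg had 5.25, 5.30 and 5.11 at 48 hpi and 4.03, 4.07 and 4.10 in controls, where it was dim (1.16 ± 0.09, adjusted p = 0.00103). Its replicates were close together. Smc4 had 8.91, 9.60 and 9.69 at 48 hpi, against 8.45, 9.10 and 9.01 in controls, and was the single member whose groups overlapped (0.55 ± 0.25, adjusted p = 0.293). Sample 1 was low in both groups, and the same-numbered differences were 0.46, 0.50 and 0.68. Its other 2 probe sets were not called without the block. For 1 of them the fit without the block gave 0.59 ± 0.35 (limma adjusted p = 0.412), and this probe set was higher with the block (blocked adjusted p = 0.0112).

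Over all 112 probe sets of the 49 genes, 68 were higher and 0 were lower without the block. Of the 45037 probe sets tested, 3.49% were higher. Of the 44 member probe sets that were not called, 26 were below the dim bound over the 6 samples. Among the 71 at or above the bound 53 were higher. Of 33 members with more than 1 probe set, 18 had at least 2 higher and 9 had every probe set higher, whereas Bub3, Pttg1 and Smc4 had none. Espl1, with 1 probe set, had none either. In fits that left out 1 sample, 41 members (83.7%) stayed higher in all 6, against 1.75% of all genes. The count in each such fit was 41 to 43 for the members and 349 to 647 over all genes, against 904 with all samples. The other 3 called members were Cenpi, Cenpn and Anln.

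The rise was not equal in the 3 injured samples. Replicate 3 was the highest of them in 41 of 49 members, against 6130 of all 18161 genes and 558 of the 904 genes called higher, and replicate 1 was the lowest in 31 members. The median level of the members was 7.15, 7.29 and 7.45 in the 48 hpi samples and 5.19, 4.99 and 5.33 in the control samples. Control replicate 3 was also the highest of its group in 27 members. Between same-numbered samples the median difference was 1.92, 2.00 and 2.15, and in each pair 48 of 49 members were higher at 48 hpi.

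Other genes of the same machines were taken from lists made by name. Of 28 other kinetochore and centromere genes 15 were higher and 0 lower, with a median log2 fold change of 0.68. The count of 15 was 6 without 48 hpi replicate 3 and 8 without control replicate 2 or control replicate 3. Kif2c, a kinesin that removes microtubule ends, rose by 2.57 ± 0.16 and Sgo2a (shugoshin), which protects centromeric cohesin, by 1.96 ± 0.32. The call of Sgo2a (adjusted p = 0.021) was lost when injured sample 3 (adjusted p = 0.075), control sample 1 (0.0503) or control sample 2 (0.0773) was dropped. Of 31 other spindle and centrosome genes 18 were higher and 1 was lower, with a median of 0.83. The count of 18 was 13 to 16 with 1 sample left out, and lowest without 48 hpi replicate 3. The largest rises were those of Kif20a, a kinesin of the central spindle (2.65 ± 0.11), and Ckap2, a microtubule-bound protein (2.50 ± 0.11). Clasp2, which stabilizes microtubule ends in interphase as well, was the gene that was lower (-0.43 ± 0.08, adjusted p = 0.0275), and this call was lost when any 1 sample was left out.

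The enzyme that Ube2c and Cdc20 serve gave a single call. Of 14 core subunits of the APC/C only Anapc15, which promotes release of the checkpoint complex, was higher (1.05 ± 0.12, adjusted p = 0.00451), and the median was 0.13. Of 14 cohesin and condensin II genes 4 were higher, with a median of 0.09, among them the condensin II subunit Ncapg2 (1.99 ± 0.16) and Esco2, which acetylates cohesin (1.35 ± 0.16, dim in both groups). Of 17 measured genes for cyclins B and A, Cdk1 and their regulators 7 were higher, and 10 with the replicate block. Ccnb2, a mitotic cyclin, rose by 3.61 ± 0.14, and Cdk1, its kinase, had 8.70, 8.74 and 8.71 at 48 hpi and 5.02, 5.51 and 5.16 in controls (3.48 ± 0.13, adjusted p = 0.000131).

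Regulators that act through the CHR are in the same list and were looked at after their values were seen. Foxm1 had 6.17, 6.30 and 6.44 at 48 hpi and 6.18, 6.09 and 6.06 in controls (0.19 ± 0.10, adjusted p = 0.341), and Mybl2 was dim in both groups (0.05 ± 0.26, adjusted p = 0.947). Lin54, the subunit that binds the CHR, had 7.10, 6.90 and 7.16 at 48 hpi and 6.69, 6.43 and 6.36 in controls, with no overlap (0.56 ± 0.12). Its adjusted p was 0.0509 without and 0.0222 with the replicate block. Of the other MuvB subunits in the list, Lin9 was dim in both groups (0.57 ± 0.13, adjusted p = 0.0676 without and 0.0221 with the block). Lin37 (0.21 ± 0.12) and Lin52 (-0.17 ± 0.11) were not called in either fit.

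DNA replication genes, which act in S phase before these machines are built, were higher in 19 of 20, with a median log2 fold change of 1.18. Uhrf1, which maintains DNA methylation at the replication fork, rose by 2.87 ± 0.15 and Cdc6, which loads the replicative helicase, by 2.30 ± 0.24. With the replicate block all 20 were higher. Without control replicate 2 the count was 13, and without 48 hpi replicate 1, 48 hpi replicate 3 or control replicate 3 it was 14. It was 16 without 48 hpi replicate 2 and 17 without control replicate 1. After a second quantile normalization it was 16. In their promoter windows a CHR was found in 3 of 17 (17.6%), a CCAAT box in 11 (64.7%) and an E2F-type site in 10 (58.8%), against 28, 31 and 3 of 41 members. A CHR was found in 39.3% and a CCAAT box in 57.1% of windows of other kinetochore genes, in 47.8% and 69.6% of those of other spindle genes, and in 6 and 10 of the 12 windows of the cyclins, Cdk1 and their regulators.

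**Figure D5:**
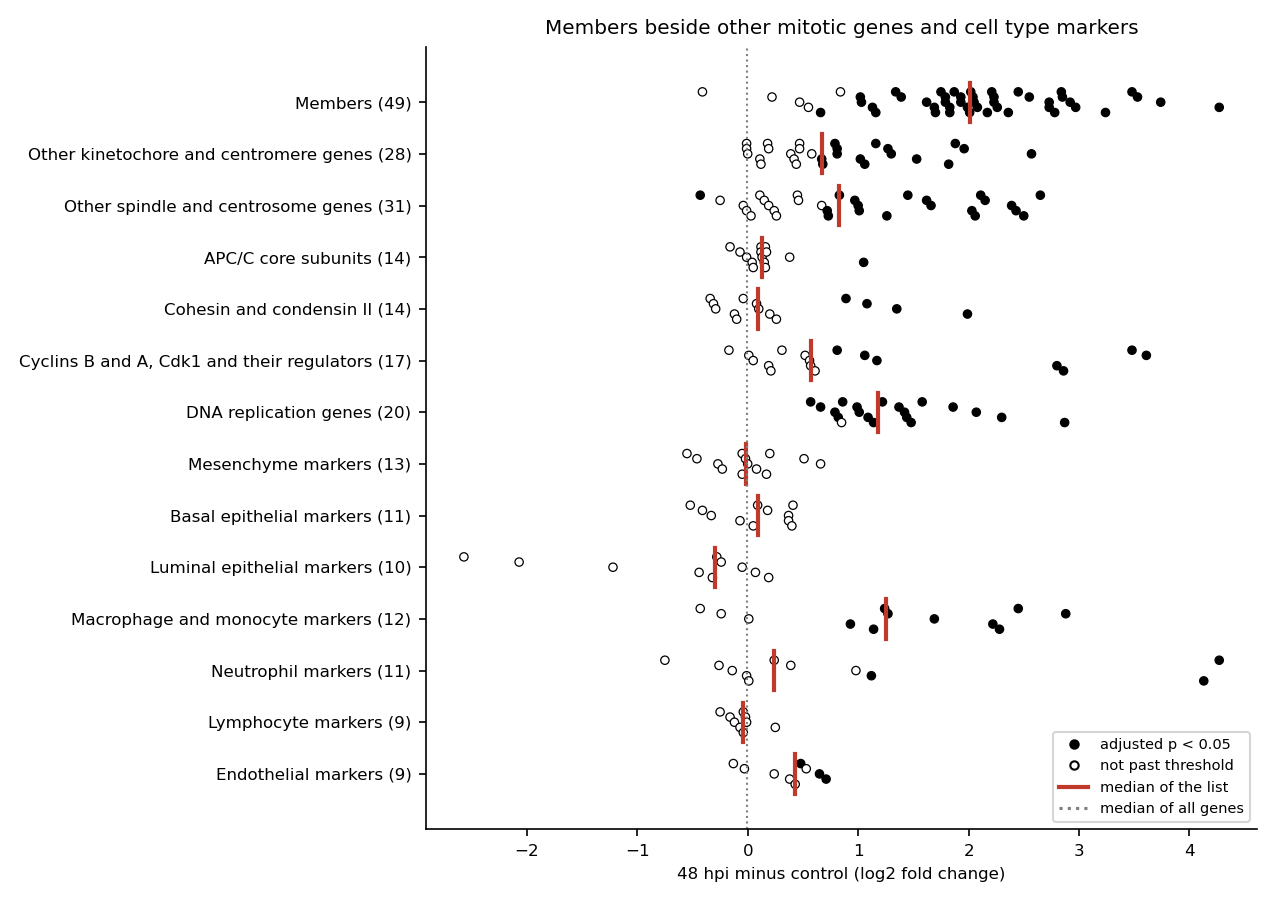
Log2 fold change (48 hpi minus control) of each measured gene in the members, in 6 other lists of cell division genes and in 7 lists of cell type markers, filled where the adjusted p was below 0.05, with the median of each list as a red bar and that of all genes as a dotted line; numbers of genes are in parentheses. The median is 2.01 in the members, 1.18 in DNA replication genes, 0.13 in APC/C core subunits and -0.02 in mesenchyme markers.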

How the data were processed

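RNA of 6 samples of tracheal mesenchyme, 3 at 48 hpi and 3 controls, was hybridized to 1 Affymetrix mouse array each. The authors deposited log2 values from RMA, and the submitters' processing notes name RMA, Affymetrix Expression Console 1.1 and Partek 6.5. Since RMA equalizes the arrays, a shift common to nearly all transcripts is lost, and folds of dim probe sets come out too small. Precision is limited by the number of arrays.

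Of 45101 probe sets, 45037 were tested after removal of 64 controls of the manufacturer. The platform annotation gave 1 symbol to 34945, several to 932 and none to 9160, and 34741 were matched by Entrez identifier to a RefSeq gene table (GRCm38.p6). The test was limma 3.58.1 (R 4.3.3), lmFit and eBayes, two-sided, with group as the only factor, since the study's second factor, the epithelium, is not in these samples. It had 4 residual and 3.21 prior degrees of freedom and was tested on simulated data. After removal of group means, same-numbered samples correlated over probe sets at 0.620, 0.360 and 0.335. Samples of different numbers correlated at between -0.432 and 0.185. The positive values among these were 0.185 (48 hpi sample 2 with control 3) and 0.110 (48 hpi sample 3 with control 2), so pairs 2 and 3 were less distinct. The numbers were therefore taken as pairs, a decision that comes from the data, since the labels name no shared day, and the replicate block was fitted as an alternative. It leaves 2 residual degrees of freedom. Deviations from a group mean cancel out within each group, so part of the contrast between same and different numbers comes from that step. Because the pairing was chosen from these same values, p-values with the block may be too small.

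The members and all lists were chosen with earlier results of these data known, so counts are descriptions beside those over all genes. Of 217 genes in the lists 204 were measured and the rest not analysed here. Values in every sample are given, by rule, for the 2 largest changes of each role, every member not called, and the 3 smallest and 3 largest SEs. Anln, Cenpn and Cenpi were added after their values were seen. Of the pathway lists up to 2 rises and 2 falls were named. Promoter windows are RefSeq's, with the first listed start of a gene used for counts. Alternatives were array centring, a second quantile normalization, a filter on dim probe sets, a trended and robust variance, the mean of all probe sets, a plain analysis of variance per probe set, the block and samples left out.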

Additional observations from a re-analysis of the deposited data

How the results depend on the processing

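Under every alternative except a plain analysis of variance per probe set, 39 to 47 members were higher, against 44 in the main fit. The 39 were of 43 left after the filter on dim probe sets. The plain test used these 6 samples alone, whereas the study ran a two-way analysis of variance that included epithelium and selected BMP pathway genes at P below 0.05. It called 6 members higher after Benjamini-Hochberg adjustment, against 41 of all 18161 genes. Without adjustment it called 47 higher and 1 lower, against 2399 and 1456 of all genes. The smaller count after adjustment follows from 4 degrees of freedom with no shared variance. With the replicate block 46 were higher and 1, Pttg1, was lower. With single samples left out the count higher was 41 to 43, the count lower was 0 and the median log2 fold change was 1.86 (without 48 hpi replicate 3) to 2.13 (without 48 hpi replicate 1). Without both samples numbered 1 the count was 41 and the median 2.05. With the mean of all probe sets of a gene in place of the brightest the median was 1.30, against 2.01, with 45 higher. Dim probe sets enter that mean, and Anln (0.59) lost its call while Espl1 and Aspm (0.79) gained one. Espl1 was also called after array centring, the dim filter, a second quantile normalization and without control replicate 3. No member changed direction under any alternative. Array scaling moved the median of all genes by at most 0.03. In 15 members a dim control mean limits how exactly the fold is known. In the other lists the block moved the count higher to 17 (15 without it) for other kinetochore genes, 19 (18) for other spindle genes, 10 (7) for cyclins and regulators, 20 (19) for DNA replication genes, 4 (3) for neutrophil and 4 (3) for endothelial markers. With single samples left out the count was 13 to 16 for other spindle genes and 13 to 17 for DNA replication genes.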
